A study of Zingiber officinale with 6 samples.

Results

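A set of 26 ginger genes, of the 55601 in the deposited table, was active in the leaf blades of every control plant and close to silent in every plant exposed to the volatiles of Pythium oligandrum (Po-VOCs). The genes were chosen by their FPKM (fragments scaled to the length of the gene model and to the library total), which had to be 2 or more in each of the 3 control libraries and below 0.5 in each of the 3 Po-VOCs libraries. They were 0.0931% of the 27928 genes that reached 2 FPKM in each control library. The reverse pattern, 2 FPKM or more in each Po-VOCs library and below 0.5 in each control library, was met by 38 genes.

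The plants were ginger (Zingiber officinale) of the Laiwu variety raised from tissue culture. Exposed plants stood for 21 days on glass jars in which P. oligandrum GAQ1 grew on V8 agar, and control plants stood on jars that held V8 agar alone. The volatiles entered through holes in the bottom of the pot, on the side of the roots, while RNA was taken from the blades of the uppermost leaves. One library was made from each of 3 Po-VOC-exposed and 3 control plants, and the identity of the tissue was not checked, since the sources used here pair few gene IDs with a product.

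P. oligandrum is a soil oomycete that parasitises other oomycetes and fungi and is used against plant disease, and its volatiles can reach a plant without contact. A transcript that nearly disappears from a leaf may have been turned off in the cells that made it, or those cells may be fewer. In a bulk leaf library, fewer cells of a type and less RNA per cell cannot be told apart. The ginger genome used by the authors carries each of 11 chromosomes as an A and a B copy, so that a gene can have a counterpart on the other copy.

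The total count on genes was 13695463 to 14662442 in the Po-VOCs libraries and 14029032 to 14306349 in the control libraries. No library was a copy of another: between plants of a group, chi-square per degree of freedom ran from 17.5 to 37.1. Control replicate 3 stood apart from the other libraries on the second principal component of the 500 most variable genes, with a score of -59.2 against -2.34 to 34.3 in the rest. The calls and the size of the set are given below with and without this library. The comparisons among the control plants are given only with it.

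The description of the genes as switched off held in the strict sense for 1 of the 26. LOC122014374 had 0 counts in all 3 Po-VOCs libraries. Of the 78 values of the 26 genes in Po-VOCs libraries, 20 were 0, and the highest was 10 counts. Summed over the 26 genes, the Po-VOCs libraries held 241 counts and the control libraries 13812. The genes are therefore called near-silent here, and a gene with 0 counts in a library may still be expressed below the level that 3 counts would show. None of the 26 gene IDs is paired with a product or a function in the sources used here, so the genes are described by their position, their size and their expression.

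LOC122014374 lies on chromosome 8B from 4365395 to 4366389 (assembly Zo_v1.1, as are all positions given) and had the highest control level of the set. It had 0 FPKM in each Po-VOCs library, against 63.6, 87.5 and 28.8 FPKM in control replicates 1, 2 and 3. Its level was at least 201-fold lower in exposed plants, against a floor of 3 counts per library. The next in level, LOC122011424 on chromosome 8A from 6456095 to 6457155, had 0.0970, 0.181 and 0.284 FPKM in Po-VOCs replicates 1, 2 and 3, against 42.3, 61.0 and 19.0 FPKM in control replicates 1, 2 and 3. In both genes control replicate 2 was the highest plant and control replicate 3 the lowest.

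LOC121981638 (chromosome 5A, 125987139 to 125989377) had 0.410, 0.345 and 0.0400 FPKM in Po-VOCs replicates 1, 2 and 3, against 44.8, 55.4 and 5.01 FPKM in control replicates 1, 2 and 3. Its control plants were the least alike of the set, 11.1-fold apart. LOC122003664 (chromosome 7B, 28157759 to 28158823) had 0.475, 0.148 and 0 FPKM in the Po-VOCs libraries, against 16.6, 31.7 and 7.13 FPKM in the control libraries, each in the order of the replicate numbers. LOC121987217 (chromosome 5B, 4765463 to 4766530) had 0.299, 0.419 and 0.365 FPKM in exposed plants, against 33.1, 11.5 and 7.61 FPKM in control plants. These genes were again lowest in control replicate 3, but LOC121987217 was highest in control replicate 1.

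LOC121991510 (chromosome 6B, 127275986 to 127281012) had 0.473, 0.442 and 0.0576 FPKM in the Po-VOCs libraries, against 17.7, 4.08 and 16.7 FPKM in the control libraries. LOC121999312 (chromosome 1A, 5751291 to 5752382) had 0.158, 0.0739 and 0 FPKM in the Po-VOCs libraries, against 15.1, 2.12 and 9.27 FPKM in the control libraries. In these genes it was control replicate 2, and not control replicate 3, that came closest to the exposed plants. LOC121981057 (chromosome 1B, 98978166 to 98980182) had 0, 0 and 0.0842 FPKM in exposed plants, against 11.1, 20.0 and 7.20 FPKM in control plants, and LOC122027365 (chromosome 10A, 23313388 to 23314875) had 0.444, 0 and 0 FPKM in exposed plants, against 9.91, 16.9 and 4.25 FPKM in control plants. All counts of LOC122027365 in exposed plants came from Po-VOCs replicate 1. LOC122028800 (chromosome 10B, 12991390 to 12992875), the tenth in level, had 0.278, 0.104 and 0 FPKM in exposed plants, against 6.56, 11.5 and 3.50 FPKM in control plants.

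**Figure D1:**
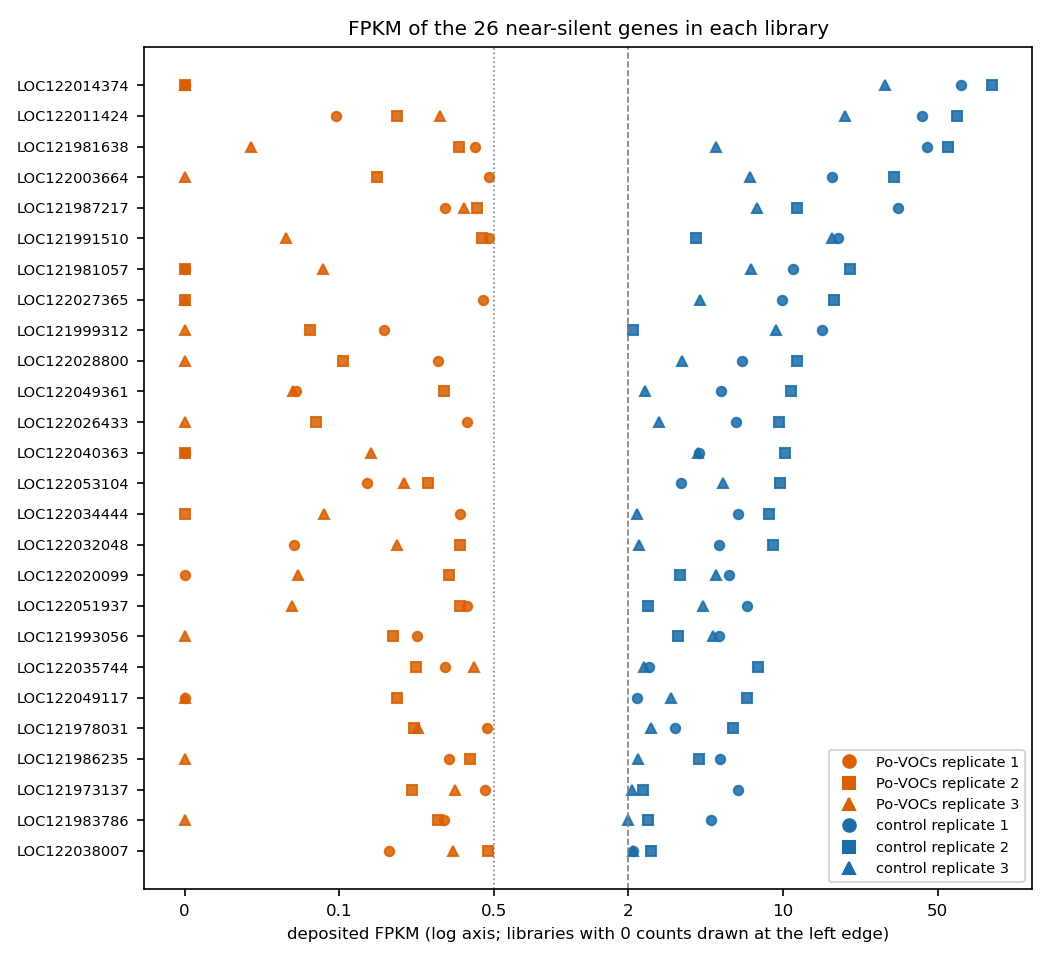
Deposited FPKM of the 26 near-silent genes (rows, ordered by control mean) on a log axis, with 1 point per library, Po-VOCs in orange and control in blue, and libraries with 0 counts at the left edge. The dotted and dashed lines mark the limits of 0.5 and 2 FPKM that chose the genes, and control replicate 3 (blue triangles) is the lowest control plant in 19 of the 26.

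In 8 of the 26 genes the control mean was above 10 FPKM, and in 16 it was above 5 FPKM. The median over the 26 control means was 6.17 FPKM, beside 8.96 FPKM for all genes that reached 2 FPKM in each control library. The 16 genes not described above had control means between 2.26 and 6.20 FPKM. In LOC122049361, LOC122026433, LOC122040363, LOC122053104, LOC122034444 and LOC122032048 the control mean was 5.49 to 6.20 FPKM, with 0 to 9 counts in any Po-VOCs library. In LOC122020099, LOC122051937, LOC121993056, LOC122035744 and LOC122049117 it was 4.08 to 4.72 FPKM, with 0 to 7 counts in any Po-VOCs library. In LOC121978031, LOC121986235, LOC121973137, LOC121983786 and LOC122038007 it was 2.26 to 3.91 FPKM, with 0 to 8 counts in any Po-VOCs library. The last of these, LOC122038007, rests on the fewest reads, with 1, 3 and 2 counts in Po-VOCs replicates 1, 2 and 3, against 13, 16 and 13 counts in control replicates 1, 2 and 3.

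In 4 genes the Po-VOCs libraries together held 1 to 3 counts, so that the fold has a wide counting error. LOC121981057 had 2 counts in exposed plants and 920 in control plants, which is 459-fold lower with an exact 95% interval of 127 to 3798. LOC121999312 had 3 counts in exposed plants and 344 in control plants, 114-fold lower (38.9 to 558). LOC122040363 had 1 and 135 counts, 135-fold lower (23.8 to 5363), and LOC122049117 had 2 and 130 counts, 64.9-fold lower (17.6 to 542), each with exposed plants first. These intervals cover counting error only and not the spread between plants.

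The groups were compared over all genes with edgeR's quasi-likelihood test, with a call at an adjusted p (Benjamini-Hochberg) below 0.05 and a fold change above 2. Of the 41508 genes tested, 433 were called lower in Po-VOC-exposed plants, which is 1.04%, and 467 were called higher, which is 1.13%. All 26 near-silent genes passed the filter on low counts, and 24 were called lower. Since the genes were chosen on this same contrast, their calls are a description and carry no support of their own. That no exposed plant reached the level of any control plant follows likewise from the way the genes were chosen, and the same was true of 12.4% of all genes tested. The fitted log2 fold change had a median of -5.34, and the same median with LOC122014374 set at its bound. It ran from -2.74 in LOC122038007 to -8.59 in LOC121981057, with LOC122014374 left out because its fitted value depends on the prior count.

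The genes with the smallest adjusted p were LOC122011424, whose log2 fold change was -7.68 (standard error 0.64, adjusted p = 0.0131 in edgeR), and LOC121981057, at -8.59 (standard error 0.80, adjusted p = 0.0132). LOC122053104 was next, with a smaller change of -4.93 (standard error 0.54, adjusted p = 0.0181). The 2 genes that were not called were LOC121983786, at -4.02 (standard error 0.79, adjusted p = 0.0517), and LOC122038007, at -2.74 (standard error 0.55, adjusted p = 0.0549). DESeq2, the tool of the study's methods, called all 26, with 3.31% of the genes it tested called lower. The edgeR calls depended on single libraries. It called 0 of the 26 without Po-VOCs replicate 2 or without control replicate 2, 1 without Po-VOCs replicate 3 and 4 without control replicate 1. Calls fell over the whole table too, with 12, 3, 5 and 37 of all genes called lower in these fits, in that order. With all libraries this number was 433. Of the 26, edgeR called 20 without Po-VOCs replicate 1 and 24 without control replicate 3, where 433 and 640 of all genes were called lower. In each of these edgeR fits all 26 stayed below 0 with an unadjusted p below 0.05, as 9.43% of all genes tested did in the fit of all libraries. That they stayed below 0 follows from the way they were chosen. DESeq2 called 24 or 25 of the 26 with any one library left out, and the shares over all genes in those fits are not given here.

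Membership was sharp at neither limit. Just inside the control limit, LOC121983786 had a lowest control value of 2.01 FPKM, LOC121973137 of 2.09 FPKM and LOC122038007 of 2.10 FPKM. Just outside it, LOC122018498 had a lowest control value of 1.97 FPKM, LOC122000233 of 1.94 FPKM and LOC122012654 of 1.91 FPKM, all in control replicate 3. Just inside the Po-VOCs limit, the highest exposed value was 0.475 FPKM in LOC122003664, 0.473 FPKM in LOC121991510 and 0.467 FPKM in LOC122038007. Just outside it, this value was 0.502 FPKM in LOC121989943, 0.526 FPKM in LOC122009103 and 0.536 FPKM in LOC121993931. The list was set most by 2 libraries. Without control replicate 3 a further 84 genes met the rule, for a total of 110, and without Po-VOCs replicate 1 a further 47 did, for a total of 73. Leaving out any one of the other libraries added 6 to 11 genes.

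The control plants themselves differed more in these genes than in most. The highest and the lowest control plant were 3.18-fold apart in the median near-silent gene, between 1.22-fold in LOC122038007 and 11.1-fold in LOC121981638. Over the 27928 genes at 2 FPKM or more in each control library, this median was 1.31-fold. The SD was 56.5% of the control mean in the median near-silent gene (n = 3) and 14.3% in the median of the 27928 genes. The rule did not use the order of the control plants. Control replicate 3 was the lowest control plant in 19 of the 26 genes (73.1%) and the highest in 0, while among the 27928 genes it was the lowest in 34.6% and the highest in 34.8%. Control replicate 2 was the highest in 17 and control replicate 1 in 9 of the 26. These are descriptions of 3 plants, with no test.

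The 26 genes fell into 4 orders among the control plants. In 15 genes control replicate 2 was highest and control replicate 3 lowest, among them LOC122014374, LOC122011424, LOC121981638 and LOC122003664. In 5 genes, LOC121991510, LOC121999312, LOC122020099, LOC122051937 and LOC121993056, control replicate 1 was highest and control replicate 2 lowest. In 4 genes, LOC121987217, LOC121986235, LOC121973137 and LOC121983786, control replicate 1 was highest and control replicate 3 lowest. In LOC122053104 and LOC122049117 control replicate 2 was highest and control replicate 1 lowest. The exposed plants were separated only by a few counts, and among the 25 genes with any count in them, Po-VOCs replicate 1 was the highest in 13, Po-VOCs replicate 2 in 8 and Po-VOCs replicate 3 in 4. Whether the standing of control replicate 3 in the whole transcriptome has a part in these orders was not tested.

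**Figure D2:**
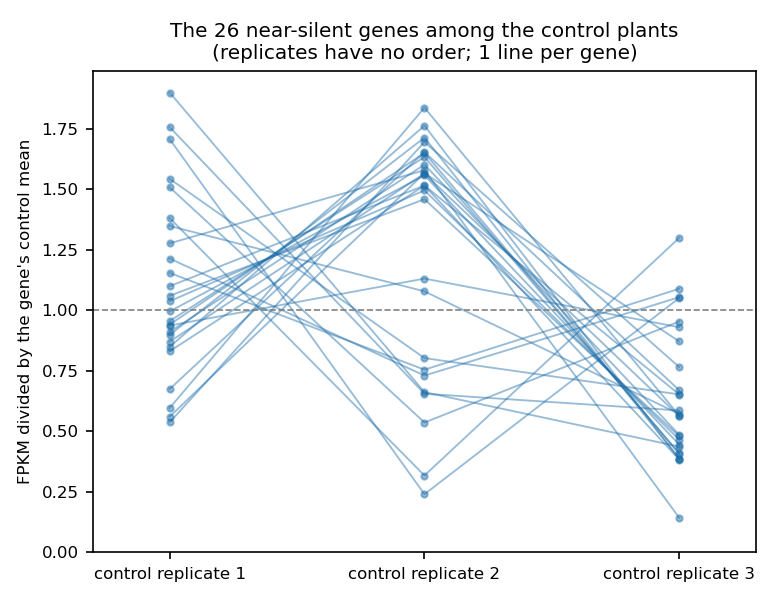
FPKM of each of the 26 near-silent genes in the 3 control plants, divided by the gene's control mean (1 line per gene, dashed line at the mean). Most lines peak at control replicate 2 and are lowest at control replicate 3, and the genes of the second order dip at control replicate 2 instead.

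The near-silent genes were short. Their span in the annotation, introns included, had a median of 1487 bases and ran from 820 to 5027 bases, beside a median of 4628 bases for genes at 2 FPKM or more in each control library. The length behind their FPKM values had a median of 1159 bases, beside 1616 bases. A single protein was annotated for 23 of the 26 genes (88.5%), beside 65.0% of the 27928 genes. They were spread over 18 of the 22 chromosomes, with 11 on A copies, 14 on B copies and 1, LOC122035744, on a sequence not placed on a chromosome. No chromosome held more than 3 of them, the most being chromosome 1B with LOC121981057, LOC121983786 and LOC122038007, which lie far apart.

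Each gene was then set beside its counterpart on the other copy of its chromosome. A counterpart was found from gene order and span only, with no sequence compared: at least 7 of the 16 flanking genes had to match in span within a tolerance of 3%, and the match had to be mutual. By this rule 16 of the 26 near-silent genes (61.5%) had a counterpart, beside 40.2% of the genes at 2 FPKM or more in each control library. When a chromosome was matched with one of another number, 0.447% of genes found a partner, against 34.5% with its own copy. Such a pair holds the same place but need not be the same gene. Among candidates, the matching also favoured a span close to that of the gene itself. Equal or nearly equal spans within a pair are therefore no separate evidence for the match.

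In 3 pairs both genes were near-silent, which accounts for 6 of the 26. Whether the genes of a pair are alleles of the same locus was not examined, so these 6 genes may stand for 3 loci. The first is LOC122014374 on 8B with LOC122011424 on 8A, the genes with the highest control levels. The second is LOC122027365 on 10A with LOC122028800 on 10B, whose spans of 1488 and 1486 bases are nearly equal. Its members had 8, 0 and 0 counts and 5, 2 and 0 counts in Po-VOCs replicates 1, 2 and 3, against 183, 319 and 79 counts and 121, 217 and 65 counts in control replicates 1, 2 and 3. The third is LOC122034444 on 11B (88574903 to 88575821) with LOC122032048 on 11A (97635972 to 97637210). In the third pair, LOC122034444 had 4, 0 and 1 counts in exposed plants, against 74, 104 and 26 counts in control plants, and LOC122032048 had 1, 6 and 3 counts in exposed plants, against 85, 152 and 37 counts in control plants. Both members of each of the 3 pairs were highest in control replicate 2 and lowest in control replicate 3.

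The other 10 counterparts had missed a limit of the rule and were not in the set. Of these, 7 had enough counts for edgeR's test, and 3 were called lower, where 1.04% of all genes tested were. The median log2 fold change of the 7 was -4.29, beside 0.01 over all genes tested, and all 7 values were below 0. Of 138 genes called lower that were not near-silent and had a tested counterpart, 62 (44.9%) had one that was also called lower. The 3 of 7 leave out the 3 pairs in which both genes were near-silent, while the 62 of 138 keep counterparts of any strength. The 138 also include the 3 called counterparts themselves. The shares are therefore not on the same basis, and whether they differ was not tested. In 8 of the 10 counterparts no exposed plant reached the level of any control plant, beside 12.4% of all genes tested. The 8 include LOC121977381 and LOC121983364, which had too few counts for edgeR's test, so the bases differ. DESeq2 called 7 of the 10 lower, beside 3.31% of the genes it tested. Without control replicate 3, edgeR called 5 of the counterparts, without Po-VOCs replicate 1 it called 3, and without any one of the other libraries it called 0. Over all genes these fits called 640, 433 and 3 to 37 lower. How the counting treated reads that match several genes is not stated in the sources used here. Reads shared by near-identical copies may have been dropped or assigned to the wrong copy, and the members of a pair, measured in the same plants, are not independent.

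The counterpart with the largest change was LOC121985502 (chromosome 5B, 117132630 to 117134868), which has the same span of 2239 bases as LOC121981638. It had 2, 1 and 0 counts in Po-VOCs replicates 1, 2 and 3, against 294, 377 and 27 counts in control replicates 1, 2 and 3 (log2 fold change -7.72, standard error 1.28, adjusted p = 0.0339 in edgeR). It fell short of the set because control replicate 3 was below 2 FPKM. LOC122023910 (chromosome 9B, 29698093 to 29701041), the counterpart of LOC122020099, had 2, 1 and 0 counts in exposed plants, against 18, 22 and 25 counts in control plants (log2 fold change -4.29, standard error 0.69, adjusted p = 0.0321). LOC122038286 (chromosome 1A, 165455733 to 165457729), the counterpart of LOC121983786, had 12, 5 and 2 counts in exposed plants, against 91, 71 and 35 counts in control plants (log2 fold change -3.39, standard error 0.64, adjusted p = 0.0466). It was called although LOC121983786 itself was not.

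Among counterparts that were tested and not called, LOC122029065 on 1B had 2, 0 and 0 counts in exposed plants, against 79, 15 and 27 counts in control plants (adjusted p = 0.0523 in edgeR). Its dip in control replicate 2 was shared with its partner LOC121999312. LOC122000050 on 7A, the counterpart of LOC122003664, had 19, 1 and 1 counts in exposed plants, against 149, 256 and 68 counts in control plants (adjusted p = 0.0622), and LOC121973849 on 4A, the counterpart of LOC121978031, had 18, 6 and 4 counts, against 100, 111 and 24 counts (adjusted p = 0.0803). Within a pair, the highest control plant was the same in 10 of the 13 pairs and the lowest in 11. In the 10 pairs with both genes tested by edgeR, each was the same in 9. Among 7570 other pairs with both genes tested, the highest control plant was the same in 58.8% and the lowest in 58.3%. These other pairs were not matched for the spread between control plants. That spread had a median of 3.18-fold in the near-silent genes and 1.31-fold over all genes at 2 FPKM or more in each control library.

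In 2 pairs the counterpart had overlapping groups. LOC122040363 lies on 2A (1099765 to 1101097). It had 0, 0 and 1 counts in exposed plants, against 30, 75 and 30 counts in control plants, while LOC122044973 on 2B (1143139 to 1144763) had 39, 13 and 21 counts in exposed plants, against 35, 72 and 35 counts in control plants. On the log2 scale the counterpart was at -0.96 (standard error 0.50, adjusted p = 0.332 in edgeR). This pair had the most matched flanks of those with a near-silent gene, 11 of 16, but spans of 1333 and 1625 bases. LOC121993056 on 6B had 6, 5 and 0 counts in exposed plants, against 141, 94 and 134 counts in control plants, and its counterpart LOC121994216 on 6A was hardly expressed in either group, with 5, 4 and 1 counts in exposed plants, against 3, 9 and 0 counts in control plants. The difference in response between the genes of a pair was not tested.

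**Figure D3:**
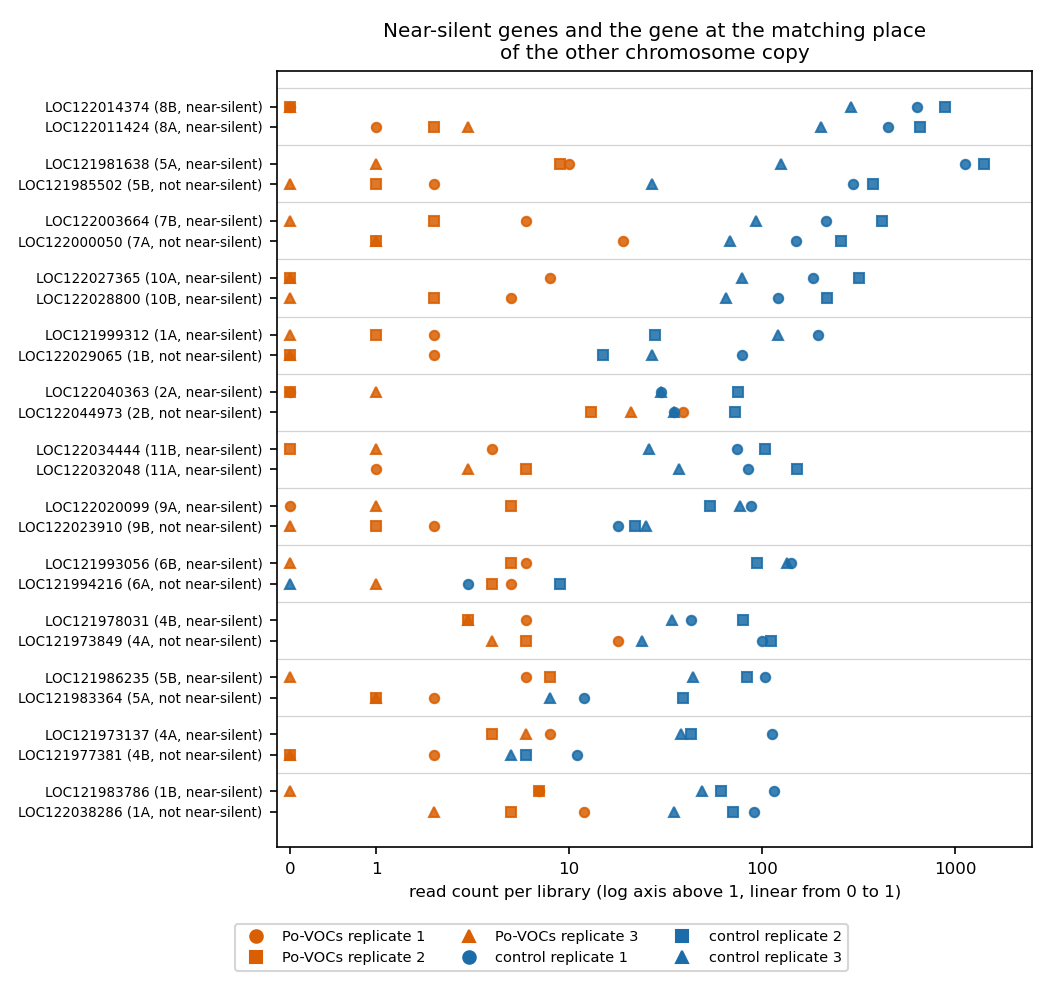
Read counts in each library (log axis above 1, linear from 0 to 1) of the 13 pairs that hold a near-silent gene, with the near-silent gene above and the gene at the matching place of the other chromosome copy below, Po-VOCs in orange and control in blue. In 3 pairs both genes are near-silent, so the rule that chose them fixed their separation. Of the other 10 lower genes, 8 also had every exposed plant to the left of every control plant, beside 12.4% of all genes tested. The exceptions are the pairs of LOC122040363 and LOC121993056. Among the 8, LOC121977381 and LOC121983364 were not tested by edgeR.

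The genes next to the near-silent ones on the chromosome were compared in the same way. The 25 placed genes had 50 neighbours, of which 39 were in the table and 32 were tested. In edgeR's test 0 of the 32 were called lower, beside 1.04% of all genes tested, and 7 (21.9%) had an unadjusted p below 0.05 in either direction, beside 20.2% of all genes tested. Their median log2 fold change was -0.14, and in 27 of the 32 the change was smaller than 1 on the log2 scale. Within 5 genes on each side, 159 genes were tested, 1 was called lower and 4 (2.52%) were called higher, beside 1.13% of all genes tested, and the median was 0.08.

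DESeq2 called 3 of the 35 nearest neighbours it tested lower (8.57%) and 9 of 175 within 5 genes on each side (5.14%), beside 3.31% of all genes it tested. The 3 nearest were looked at after their values were seen. LOC121973136, the neighbour of LOC121973137 on 4A, had 3.19, 2.02 and 5.33 FPKM in exposed plants, against 49.5, 13.6 and 15.7 FPKM in control plants (log2 fold change -2.90, adjusted p = 0.0673 in edgeR and 5.07e-05 in DESeq2). Both genes were highest in control replicate 1, and their starts lie 2201 bases apart. LOC121977054, beside LOC121978031, averaged 2.06 ± 0.900 FPKM in exposed plants and 6.03 ± 1.30 FPKM in control plants (SD, n = 3 each), and LOC121983974, beside LOC121987217, had 19.7, 19.7 and 29.6 FPKM in exposed plants, against 41.3, 47.0 and 60.6 FPKM in control plants. In none of the 3 did an exposed plant reach the level of a control plant, as was true of 12.4% of all genes tested by edgeR. Since the 3 were picked by their DESeq2 call, this separation carries no support of its own.

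Each of the 4 neighbours called higher has a product description from the study. LOC122053103, described as a probable galacturonosyltransferase 10, an enzyme type that builds pectin of the cell wall, starts 2307 bases from LOC122053104 on 3A. It averaged 7.72 ± 1.60 FPKM in exposed plants and 2.99 ± 0.593 FPKM in control plants (SD, n = 3 each). Its log2 fold change was 1.35 (standard error 0.22, adjusted p = 0.0323 in edgeR), so that a near-silent gene and a gene called higher stood side by side. LOC122028577, 2 genes from LOC122028800 on 10B and described as glutathione transferase GST 23-like, of a family that conjugates glutathione to foreign compounds, had 72, 23 and 14 counts in exposed plants, against 0, 1 and 2 counts in control plants (adjusted p = 0.0485). The others, each 4 genes away, were LOC121981635, a WRKY transcription factor 6-like gene near LOC121981638, and LOC121973135, a LURP-one-related 8-like gene near LOC121973137. LOC121981635 averaged 15.2 ± 4.12 FPKM in exposed plants and 5.99 ± 1.14 FPKM in control plants (SD, n = 3 each). LOC121973135 had 59.7, 39.4 and 51.7 FPKM in exposed plants, against 10.9, 11.1 and 14.1 FPKM in control plants.

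The single gene that edgeR called lower within 5 places was LOC121999396 on 1A, 5 genes from LOC121999312. It had 1.02, 0.0794 and 0.331 FPKM in exposed plants, against 36.8, 8.30 and 24.4 FPKM in control plants (log2 fold change -5.63, standard error 0.82, adjusted p = 0.0289 in edgeR). It missed the set through Po-VOCs replicate 1 alone, and like LOC121999312 it was highest in control replicate 1 and lowest in control replicate 2. The starts of these genes lie 725515 bases apart.

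**Figure D4:**
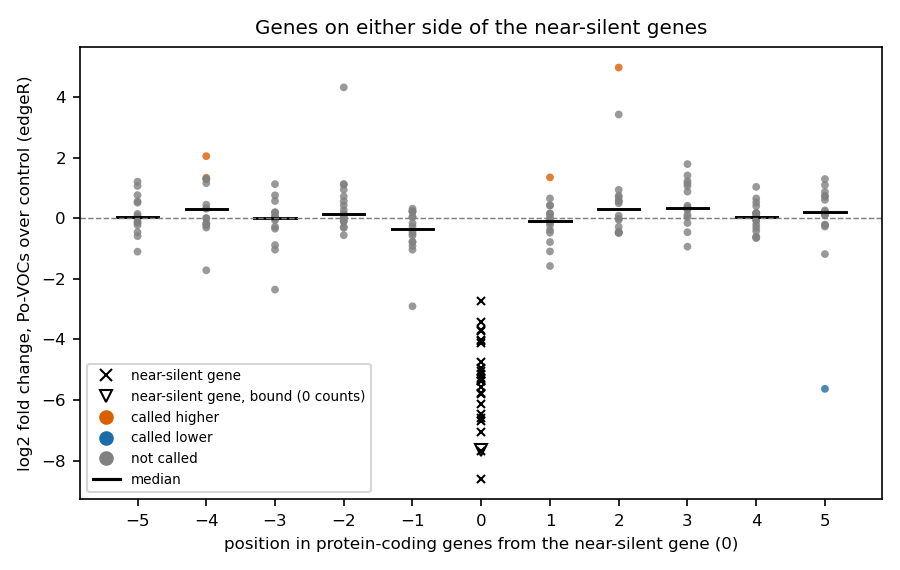
Log2 fold change (Po-VOCs over control, edgeR) of the near-silent genes (crosses at 0, the gene with 0 counts as an open triangle at its bound) and of the tested genes up to 5 places away on each side, with black bars at the median of each place. The medians lie close to the dashed line at 0, and edgeR called 4 of the 159 neighbours higher (orange) and 1 lower (blue).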

How the data were processed

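The members and lists were chosen with earlier results of these data known. The deposited counts were made by the authors with Trimmomatic, HISAT2 on the Zo_v1.1 assembly and HTSeq-count, and are whole numbers without normalization. The deposited FPKM are attributed by the authors to Cufflinks, and all 299269 values above 0 equalled count over gene length and library total within 0.1%. For the versions, the counting mode and the strand option: not given in the sources used here.

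Counts were tested in R 4.3.3 with edgeR 4.0.16 (filterByExpr defaults, minimum count 10 and total 15, TMM, no covariate, Benjamini-Hochberg over 41508 genes). The standard error is the absolute log2 fold change over the square root of F. DESeq2 1.42.0, limma 3.58.1 on log2(FPKM + 1) and log2(FPKM + 0.1), RLE scaling, no count filter, a replicate block and each library left out were alternatives. The main edgeR fit and DESeq2 were first checked on simulated counts, and the other alternatives were not. An exact permutation test of 3 plants against 3 cannot go below 0.1, so single genes rest on the model.

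Named genes are the near-silent genes, the 3 genes outside each limit, their counterparts, and neighbours by call. Partners by protein identity, described relatives, promoter motifs and leaf markers had been planned and were not analysed here, since no sequences were used and product descriptions covered upregulated genes only. Counterparts by gene order (up to 8 protein-coding genes on each side, log span ratio of the pair up to 0.35) were chosen in their place after the data were seen. Product descriptions come from the study.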

Additional observations from a re-analysis of the deposited data

How the results depend on the processing

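Fold sizes are limited by depth, since a near-silent gene had 0 to 20 counts in all exposed plants together. All 26 near-silent genes kept a log2 fold change below 0 in each alternative, which follows from the way they were chosen and is no measure of stability. Their number was 93 with a control minimum of 1 FPKM, 6 with 5 FPKM, 7 with a Po-VOCs maximum of 0.25 FPKM and 64 with 1 FPKM, and ran from 32 to 110 with single libraries left out. With FPKM rescaled by TMM factors, 25 genes stayed and 1 joined. The number called lower by edgeR ran from 0 to 24 with single libraries left out. Over all genes, 3 to 640 were lower and 1 to 983 higher with single libraries left out, 1553 lower and 1755 higher in DESeq2, and 282 lower in limma on log2(FPKM + 1) without a filter. Replicate numbers did not pair the plants, with correlations of -0.02, 0.02 and -0.10 between same-numbered plants. The replicate block left 71 genes lower, 65 higher, 7 near-silent genes called and 1 counterpart called. Of the counterparts, 0 to 5 were called by edgeR with single libraries left out, 5 without a count filter, 1 by limma on log2(FPKM + 1) without a filter, 0 when at least 9 flanks had to match, 7 by DESeq2, and 6 or 7 by DESeq2 with single libraries left out. Only LOC121983364, which edgeR did not test, and LOC122044973 had at least 9 matched flanks. The 3 counterparts called in the main fit had 7 each, so this setting removed them and could not test their calls. Of the nearest neighbours, edgeR called 0 and DESeq2 3, and of the nearest 5 on each side edgeR called 1 and DESeq2 9, the last added after seeing the data. Partners by protein identity were not run.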
